A study of Mus musculus with 4 samples.

Results

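The Klr genes are the killer cell lectin-like receptor genes of the mouse NK gene complex. Their transcripts were followed by single-cell RNA sequencing in CD45+ cells sorted from melanomas. The members were all genes with a symbol of the form Klr, a letter from a to k, a number and at most 1 further letter, and with at least 10 UMIs (unique molecular identifiers, 1 per counted transcript) over all cells. Of 26 such genes among the 32285 of the matrix, 25 met the minimum, and Klra10, with 4 UMIs, did not.

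The cells came from tumours grown from YUMM1.7OVA, a mouse melanoma line with BrafV600E and without Cdkn2a that expresses the model antigen ovalbumin. The hosts of all 4 samples were Rag2-/- mice, which make no T or B cells of their own but keep NK cells. All received ovalbumin-specific OT-1 CD8+ T cells on day 7, and tumours were taken on day 10, 72 h later. NTT tumours came from a line naive to targeted therapy (named as clone 3A6 in the labels) and RTT tumours from a line made resistant to BRAF inhibition (2B12). RTT_ROSA26 tumours came from the resistant line with a control guide to the Rosa26 locus, and RTT_PTGS12KO tumours from the resistant line without Ptgs1 and Ptgs2, which encode the cyclooxygenases of prostaglandin synthesis. There was 1 sample per group, so no difference between groups was tested. The labels give 1 tumour per condition while the study's legends describe pooled tumours, and which holds here was not settled.

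NK cells read ligands on other cells through paired inhibitory and activating receptors. The Ly49 receptors (Klra genes) bind MHC class I, CD94 (Klrd1) pairs with NKG2 chains (Klrc genes) to read Qa-1, NKG2D (Klrk1) reads stress-induced ligands, and the NKR-P1 receptors (Klrb1 genes) bind Clec2 proteins. Inhibitory members signal through tyrosine phosphatases, and activating members through the adaptors DAP12 (Tyrobp) and DAP10 (Hcst). Ly49 genes are known to be switched on in some NK cells and not in others, so that single cells carry different sets.

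All 25 genes lie on chromosome 6 of GRCm38 and are annotated as protein coding. Klrg2 stands apart (38625693 to 38637242, minus strand), as does Klrg1 (122270596 to 122282882, minus strand). The NKR-P1 genes follow from Klrb1a (128609227 to 128623533, minus strand) to Klrb1f (129045901 to 129057464, plus strand). Klre1, Klrd1, Klrk1, the Klrc genes and the Klri genes come next, from 129577905 to 129740484. The Ly49 genes run from Klra17 (129831154 to 129876672, minus strand) to Klra1 (130363917 to 130386874, minus strand), and Klra2 lies last (131219223 to 131247362, minus strand). Counts were made at the 3′ end. In the GENCODE annotation, 10 of the 25 genes shared at least one 90-base word of their last 500 bases with any part of a transcript of another gene. The shared part was highest for Klrc1 (21.9% of words, all with Klrc2), Klrb1b (14.0%, with the unnamed gene Gm44511) and Klra9 (12.4%, with Klra3, Klra8, Klra10 and the pseudogene Klra11-ps), so reads of these may have been split or lost. For the last 500 bases of Klra4, Klra8 and Klra2 themselves the shared part was 0%, since the words that Klra9 shares with Klra8 lie outside the last 500 bases of Klra8.

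The start regions of 3 Ly49 genes are shown because the cell types with most of their counts differ, NK_cells and Myofibrobl for Klra4, NK_cells for Klra8 and myeloid types for Klra2, as the values further on show. Each run is 300 bases of the RefSeq GRCm38.p6 assembly, 250 before and 50 after the annotated start, read 5′ to 3′ on the minus strand, from chr6:130067222-130067521 for Klra4, chr6:130129849-130130148 for Klra8 and chr6:131247313-131247612 for Klra2. Capitals mark every GAGGAA, a core bound by ETS factors such as PU.1, on either strand. They also mark every TATA box, searched as the letters TATAAA. A match on the other strand is printed as its reverse complement.
Klra4: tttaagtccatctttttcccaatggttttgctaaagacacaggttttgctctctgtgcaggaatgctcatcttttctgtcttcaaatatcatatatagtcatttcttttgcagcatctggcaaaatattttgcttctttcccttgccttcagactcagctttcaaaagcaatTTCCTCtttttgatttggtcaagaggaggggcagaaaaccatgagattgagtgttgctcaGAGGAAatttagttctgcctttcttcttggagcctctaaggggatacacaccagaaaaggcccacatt
Klra8: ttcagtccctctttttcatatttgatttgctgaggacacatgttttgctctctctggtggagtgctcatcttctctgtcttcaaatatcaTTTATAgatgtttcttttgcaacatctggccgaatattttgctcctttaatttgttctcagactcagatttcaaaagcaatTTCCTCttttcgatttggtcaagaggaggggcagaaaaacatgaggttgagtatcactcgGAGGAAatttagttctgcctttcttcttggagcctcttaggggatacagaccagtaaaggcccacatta
Klra2: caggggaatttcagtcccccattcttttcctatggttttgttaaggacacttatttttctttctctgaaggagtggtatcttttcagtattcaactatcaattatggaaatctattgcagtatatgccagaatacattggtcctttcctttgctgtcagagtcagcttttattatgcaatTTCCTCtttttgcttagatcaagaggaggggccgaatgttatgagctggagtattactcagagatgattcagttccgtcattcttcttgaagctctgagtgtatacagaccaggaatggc
The Klra4 and Klra8 windows were identical at 259 of 301 aligned positions (86.0%), the highest of all pairs of Klra windows, and Klra2 was 71.7% identical to Klra4. Both Klra4 and Klra8 held GAGGAA on each strand at nearly the same places, starting 78 and 18 bases before the start of Klra4 and 79 and 19 bases before that of Klra8. Klra2 held 1 match, 70 bases before its start, and the TATAAA of Klra8 had no counterpart in the other two. Over 22 members with a window, 13 held GAGGAA and 8 held TATAAA, against 28.3% and 14.2% of all 27025 windows. The other motifs searched on both strands were TGTGGT (RUNX core, 8 members, 16.9% of all windows), TCACAC (T-box core, 3 members, 14.4%), TTCNNNGAA (STAT site, 3 members, 8.47%) and the interferon-stimulated response element (0 members, 3.49%). Windows for Klrg1, Klrd1 and Klri2 were not used here. A match is a match of letters only.

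Values below are CPM, the UMIs of a gene scaled by all UMIs of the summed cells, with 95% exact Poisson intervals. Shares of cells carry exact Clopper-Pearson intervals. Both cover counting error only, not variation between mice. The CPM intervals also take each UMI as independent, though UMIs of a gene can gather in few cells. Because a 3′ method counts each transcript once, levels were not divided by gene length. The 33368 cells held 443071307 UMIs, of which 141326 belonged to the Klr genes. Samples were labelled, pooled and loaded 3 times on the chip, so free RNA was shared by the samples of a load. Within each load, 0 barcodes were used by more than 1 sample, and 98 barcode sequences recurred between loads, where they mark different droplets.

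NK_cells, as the authors named them, numbered 709 in NTT, 306 in RTT_PTGS12KO, 13 in RTT and 26 in RTT_ROSA26. Their 7 NK markers, Ncr1 and Gzma among them, were all highest in this type. The 7 T cell markers summed to 79.6 CPM in NK cells against 2441 CPM in T_CD8, and Cd8a was at 0.076 CPM. The NK cells of the resistant controls were few and carried much macrophage RNA. The 5 macrophage markers summed to 12787 CPM in RTT and 6683 CPM in RTT_ROSA26, against 947 CPM in NTT and 1076 CPM in RTT_PTGS12KO. Their Klr values are therefore given only beside those of the other 2 samples. In NTT the NK cells were shallower than in RTT_PTGS12KO, with a median of 7669 against 15524 UMIs per cell.

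Most Klr genes had their highest level in NK cells. Of the 25 genes, 19 had their highest CPM in NK_cells among the 17 cell types. Some of the 19 were close to another type. Klrk1 stood at 348 CPM in NK cells and 285 CPM in DC3, with 19.4% of its UMIs in NK cells. With NTT alone it was highest in cDC2. Klrc1 stood at 263 CPM in NK cells and 226 CPM in T_CD8, and with RTT_PTGS12KO alone it was highest in T_CD8. All 25 genes summed to 4083 CPM in NK cells, 1311 CPM in cDC2 and 992 CPM in T_CD8, the adoptively transferred T cells. For 10 genes, over 90% of all UMIs came from NK cells, although these made up 1054 of the 33368 cells. These were Klrg1, Klrb1a, Klrb1c, Klrb1f, Klre1, Klra1, Klra5, Klra7, Klra8 and Klra9. Such shares over all genes of the matrix are not given here. The other 6 of the 25 genes were highest elsewhere, Klrb1b in cDC2, Klri1 in DC3 (the CCR7+ dendritic cells), Klra2 in Monocyte_3, Klra17 in neutrophils, Klra4 in Myofibrobl and Klrg2, barely counted, in cDC1. The type of Klrg2 is not settled, at 1.55 CPM in cDC1 and 1.36 CPM in Macro. It was Macro with NTT or RTT_PTGS12KO alone and Infl_Mono with the samples weighted equally.

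**Figure D1:**
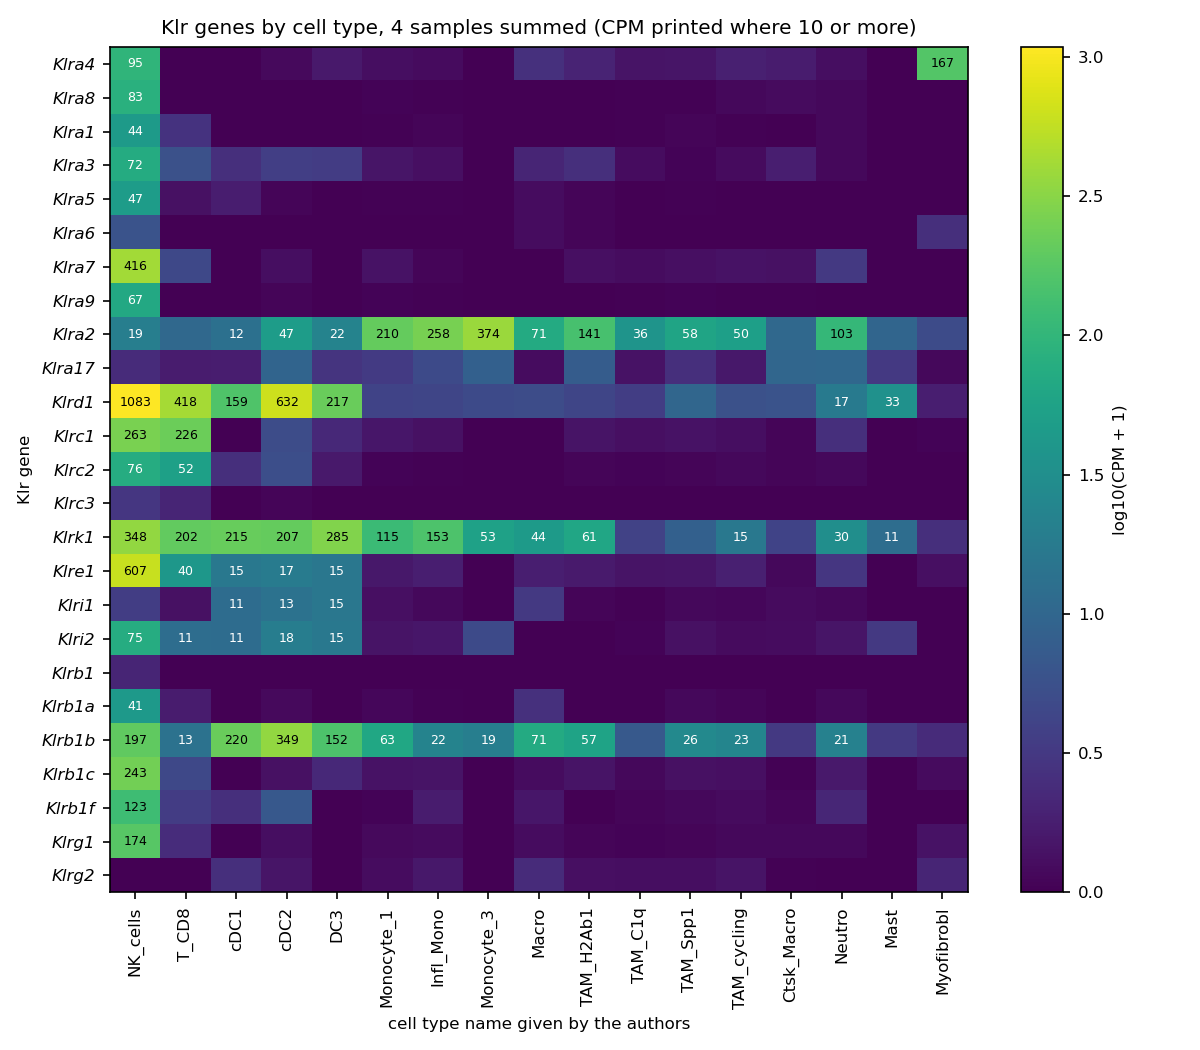
Level of the 25 Klr genes (rows) in the 17 cell types named by the authors (columns), all 4 samples summed, coloured by log10(CPM + 1) and with CPM printed where it is 10 or more. The NK_cells column is filled for most genes, while Klra2 runs through monocytes and macrophages, Klrb1b, Klrk1 and Klrd1 through dendritic cells, and Klra4 stands alone in Myofibrobl at 167 CPM.

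Among the receptors of all NK cells, CD94 led. Klrd1 stood at 1193 CPM (1168 to 1219) in NTT, 941 (915 to 967) in RTT_PTGS12KO, 904 (784 to 1036) in RTT and 1092 (998 to 1192) in RTT_ROSA26. Klre1, whose product pairs with the Klri chains, stood at 687 CPM (668 to 707), 527 (507 to 547), 295 (229 to 375) and 433 (375 to 497) in that order of samples, which is kept from here on. Klrk1 (NKG2D) stood at 394 CPM (379 to 408), 297 (282 to 312), 225 (167 to 296) and 278 (232 to 331). All 3 genes were highest in NTT, and their NTT and RTT_PTGS12KO intervals did not overlap. For Klre1 the loads differed, with a log2 ratio of NTT over RTT_PTGS12KO of 0.03 in load 1, 0.53 in load 2 and 0.50 in load 3. Klrd1, Klre1 and Klrk1 were also the most widely detected. When each cell was thinned to 3500 UMIs, 91.7% (89.3 to 93.7) of 648 NTT cells and 88.2% (83.9 to 91.6) of 296 RTT_PTGS12KO cells held a Klrd1 UMI. In macrophages named TAM (tumour-associated macrophages) of the same samples the Klrd1 share was 1.34% and 0.882%, at median depths of 11505 and 15499 UMIs before thinning. Unthinned, the Klrd1 share of NK cells was 97.2% and 98.4%.

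The NKG2 chains followed. Klrc1 (NKG2A, inhibitory) stood at 309 CPM (296 to 322) in NTT, 211 (199 to 224) in RTT_PTGS12KO, 194 (141 to 260) in RTT and 181 (144 to 224) in RTT_ROSA26. Klrc2 (NKG2C, activating) stood at 85.3 CPM (78.7 to 92.4), 62.9 (56.3 to 70.1), 92.6 (57.3 to 142) and 65.2 (44.0 to 93.1). Klrc1 was thus the more abundant of the pair in every sample, with the limit that both share 3′ sequence. Klrc3 (NKG2E) had 15 UMIs in NTT and 10 in RTT_PTGS12KO. In thinned cells, Klrc1 was seen in 55.4% (51.5 to 59.3) of NTT and 43.6% (37.9 to 49.4) of RTT_PTGS12KO cells.

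Of the NKR-P1 genes, Klrb1c (NK1.1, activating) stood at 301 CPM (289 to 314) in NTT, 179 (168 to 191) in RTT_PTGS12KO, 106 (67.8 to 157) in RTT and 128 (97.7 to 166) in RTT_ROSA26. Klrb1b, the inhibitory receptor for Clec2d, stood at 229 CPM (218 to 240), 158 (147 to 169), 119 (78.5 to 173) and 181 (144 to 224). Klrb1c was thus the higher of these in NTT and RTT_PTGS12KO, and Klrb1b in RTT and RTT_ROSA26, there within overlapping intervals. Klrb1f was level, at 125 CPM (117 to 134) in NTT and 125 (116 to 135) in RTT_PTGS12KO. Klrb1a (NKR-P1A, activating) was 55.0 CPM (49.7 to 60.7) in NTT and 26.3 (22.1 to 31.1) in RTT_PTGS12KO, with 5 UMIs in RTT and 4 in RTT_ROSA26. Klrb1 was at 16 UMIs in the whole series. The level of each of Klrb1c, Klrb1b and Klrb1a was higher in NTT than in RTT_PTGS12KO beyond counting error. The thinned shares went the same way, 64.5% (60.7 to 68.2) against 47.6% (41.8 to 53.5) for Klrb1c and 18.1% (15.2 to 21.2) against 11.1% (7.80 to 15.3) for Klrb1a. The Klrb1c gap was narrower without the NK cells that held a T cell receptor or CD8 UMI, at 62.1% against 58.7% in a single draw and 63.5% against 53.0% averaged over all draws, where all NK cells gave 63.6% against 49.6%. Unthinned, in cells of unequal depth, Klrb1c was in 84.9% and 85.6% of NK cells.

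Klrg1, an inhibitory receptor for cadherins carried by mature NK cells, stood at 184 CPM (174 to 194) in NTT and 177 (166 to 189) in RTT_PTGS12KO, intervals that overlap. In thinned cells, which count each cell alike, it was in 42.4% (38.6 to 46.3) of NTT and 32.8% (27.5 to 38.4) of RTT_PTGS12KO cells, and the log2 ratio moved from 0.05 to 0.52, also when averaged over all draws. Klrg1 stood at 66.1 CPM (37.0 to 109) in RTT and 52.2 (33.4 to 77.7) in RTT_ROSA26. The Klri chains were unlike each other. Klri2, the activating one, stood at 74.8 CPM (68.6 to 81.4) in NTT and 76.9 (69.6 to 84.8) in RTT_PTGS12KO, and Klri1, the inhibitory one, had 25 and 8 UMIs there. Klrg2 was at 0 UMIs in all 1054 NK cells, which allows up to 0.229 CPM (3 counts of the total).

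The Ly49 genes differed in level and in how many cells held them. Klra7 (Ly49G, inhibitory) was the most abundant, at 524 CPM (507 to 541) in NTT, 305 (291 to 321) in RTT_PTGS12KO, 198 (145 to 265) in RTT and 113 (84.5 to 148) in RTT_ROSA26. It was found in 47.4% (43.5 to 51.3) of thinned NTT cells and 42.6% (36.9 to 48.4) of thinned RTT_PTGS12KO cells, shares that overlap. The cells that held it carried 5.25 UMIs on average in NTT and 2.83 in RTT_PTGS12KO after thinning. The difference in Klra7 level was thus mostly one of UMIs per cell with the gene.

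The activating Ly49 genes are Klra8 (Ly49H, known for its viral ligand) and Klra4 (Ly49D). Klra8 stood at 90.2 CPM (83.4 to 97.4) in NTT, 70.1 (63.1 to 77.6) in RTT_PTGS12KO, 172 (122 to 235) in RTT and 65.2 (44.0 to 93.1) in RTT_ROSA26. Klra4 stood at 84.2 CPM (77.6 to 91.2), 112 (103 to 122), 101 (64.3 to 152) and 54.4 (35.2 to 80.3). Klra4 was one of 2 genes with at least 50 UMIs, with Klra1, whose whole counting interval was on the RTT_PTGS12KO side. Here the share moved too, from 9.72% (7.55 to 12.3) of thinned NTT cells to 19.3% (14.9 to 24.2) of thinned RTT_PTGS12KO cells, while UMIs per cell with Klra4 were 3.57 and 3.60. The log2 ratio of Klra4, -0.41 with all reads, was -0.82 in thinned cells averaged over all possible draws and -0.56 in a separate single draw. Unthinned, the shares were 12.6% and 25.5%.

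The remaining Ly49 genes, all inhibitory, were in few cells. Klra9 (Ly49I) stood at 72.0 CPM (65.9 to 78.5) in NTT and 67.3 (60.5 to 74.6) in RTT_PTGS12KO, and Klra3 (Ly49C) at 69.2 (63.3 to 75.6) and 72.0 (64.9 to 79.6). Klra5 (Ly49E) stood at 53.8 CPM (48.6 to 59.5) and 43.0 (37.6 to 49.0), and Klra1 (Ly49A) at 37.3 (33.0 to 42.1) and 54.0 (47.9 to 60.7). The intervals of Klra9, Klra3 and Klra5 overlapped between the samples, and those of Klra1 did not. Klra6 (Ly49F) had 48 UMIs in NTT, 6.71 CPM (4.95 to 8.90), and 11 in RTT_PTGS12KO, 2.08 CPM (1.04 to 3.73). Unthinned, these came from 2.96% of NTT and 2.29% of RTT_PTGS12KO cells, so the Klra6 values rest on few cells. Klra5 was in 6.94% (5.11 to 9.18) of thinned NTT cells and 4.73% (2.61 to 7.81) of thinned RTT_PTGS12KO cells. Klra1 was in 5.09% (3.53 to 7.08) and 8.45% (5.54 to 12.2), so its thinned shares overlapped although its CPM intervals did not. Thinned NTT cells with Klra5 held 2.78 of its UMIs on average, and those with Klra1 held 2.52.

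The sets of Ly49 genes varied from cell to cell. Counting Klra1, Klra3, Klra4, Klra5, Klra6, Klra7, Klra8 and Klra9 in thinned cells, 36.6% (32.9 to 40.4) of NTT cells held none, 32.7% held 1, 18.4% held 2 and 12.3% held at least 3. In RTT_PTGS12KO the shares were 28.7% (23.6 to 34.2), 33.1%, 25.3% and 12.8%. Pairs of these genes met in the same cell somewhat more often than independent draws would give, at a median of 1.47 times over the 16 pairs with at least 5 expected cells in NTT and 1.18 times over 12 pairs in RTT_PTGS12KO. Among these 16 pairs, the one with the highest ratio in NTT was the activating one, where Klra8 was seen in 49.2% (36.4 to 62.1) of the 63 cells with Klra4 and in 9.74% (7.46 to 12.4) of the 585 without it. In RTT_PTGS12KO the same shares were 19.3% (10.0 to 31.9) of 57 and 15.1% (10.8 to 20.2) of 239. Cells of 1 sample share their source, so this is a description of those cells.

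**Figure D2:**
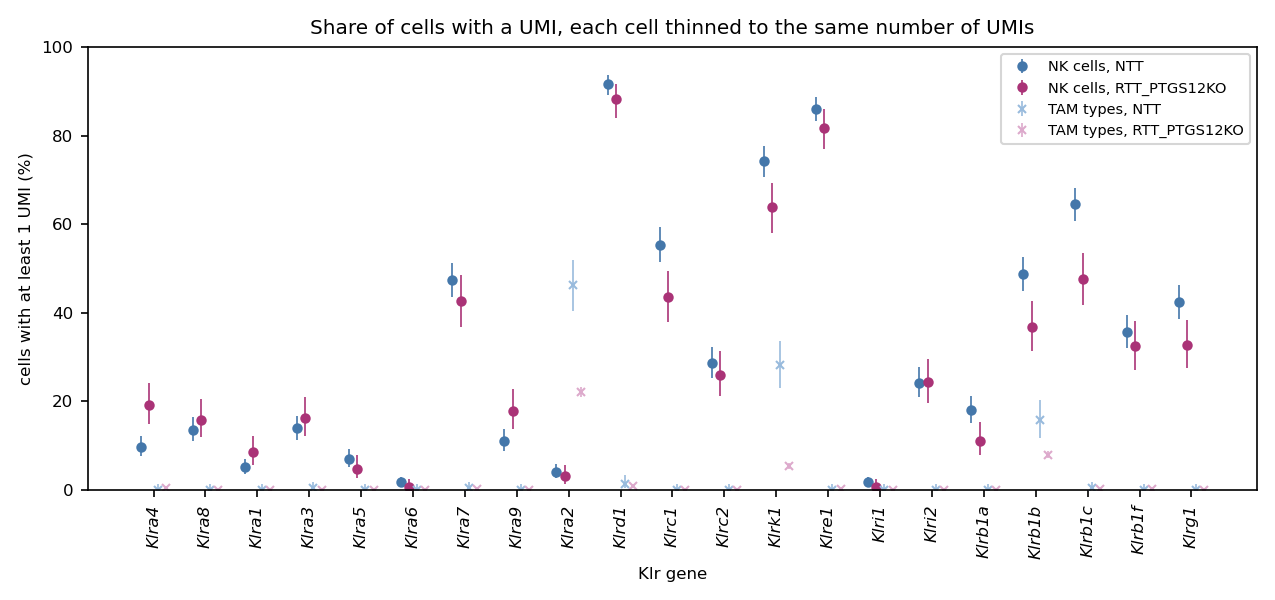
Percent of cells with at least 1 UMI of the Klr genes (x axis) found in 10 or more thinned NK cells of a sample, after every cell was thinned to 3500 UMIs, in NK cells (circles) and TAM types (crosses) of NTT and RTT_PTGS12KO, with 95% exact binomial intervals. Klrd1 and Klre1 are in over 80% of NK cells of both samples and Ly49 genes other than Klra7 in under 20%, and the TAM types are under 5% except for Klra2, Klrk1 and Klrb1b.

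The contrast of NK cells in NTT against RTT_PTGS12KO compares the therapy-naive tumour with the tumour of resistant cells that lack both cyclooxygenases, the samples with over 100 NK cells. Summed over the members, NK cells held 4603 CPM (4553 to 4653) of Klr transcripts in NTT, 3529 (3478 to 3580) in RTT_PTGS12KO, 2879 (2663 to 3109) in RTT and 2962 (2807 to 3124) in RTT_ROSA26. The log2 ratio of NTT over RTT_PTGS12KO was 0.38 (0.36 to 0.41). It was 0.19 in load 1, 0.52 in load 2 and 0.40 in load 3, so loads of the same samples spread far more than counting error. The 7 NK markers summed to 13582 CPM in NTT and 8527 CPM in RTT_PTGS12KO, a sum that is mostly Gzma, and they were not of one direction. Their log2 ratios were 1.00 for Nkg7, 0.84 for Gzma, 0.43 for Txk, 0.18 for Il2rb, 0.07 for Ncr1, -0.14 for Prf1 and -0.45 for Eomes. The 5 monocyte markers, all with UMIs in both samples, summed to 3202 CPM in NK cells of NTT and 1792 CPM in those of RTT_PTGS12KO. The part of either list in the Klr difference was not tested.

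Gene by gene the differences were small. Of the 25 genes, 20 reached 50 UMIs in both NK sums together, and the log2 ratio of CPM + 1 was above 0 for 16 of them and below 0 for 4, against 49% and 51% of all genes. Its median was 0.37, against -0.01 over all 8979 genes. The counting interval lay above 0 for 13 genes, below 0 for 2 and across 0 for 5, where 16.9% of all genes had it above 0 and 18.2% below. Past 2-fold, 2 genes were higher in NTT, Klra6 at 1.32 (0.59 to 2.02) and Klrb1a at 1.03 (0.76 to 1.31), and 0 were higher in RTT_PTGS12KO. Over all genes, 1.19% were past 2-fold higher in NTT and 1.55% higher in RTT_PTGS12KO. In load 1 alone Klra6 was at 0.58 and Klrb1a at 0.50, both short of 2-fold. In thinned cells, averaged over all draws, Klra5 went from 0.32 to 0.67, Klra1 from -0.52 to -0.96 and Klra8 from 0.36 to 0.11. Klrb1a was at 0.84 there, short of 2-fold. Klra6 was at 1.49 but had under 50 UMIs, so it was not counted. A single draw put Klra5 at 1.12, past 2-fold. Next by size with all reads were Klra7 at 0.78 (0.69 to 0.86) and Klrb1c at 0.74 (0.63 to 0.86), each above 0 in every load. Below 0 were Klra1 at -0.52 (-0.76 to -0.28) and Klra4 at -0.41 (-0.57 to -0.25), again with the same sign in every load. Klra2, low in NK cells with 157 UMIs in NTT and 73 in RTT_PTGS12KO, was at 0.63 (0.24 to 1.02). The 5 genes under the minimum were Klrg2, Klrb1 (7 and 6 UMIs in NTT and RTT_PTGS12KO), Klrc3, Klri1 and Klra17 (2 and 15 UMIs).

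**Figure D3:**
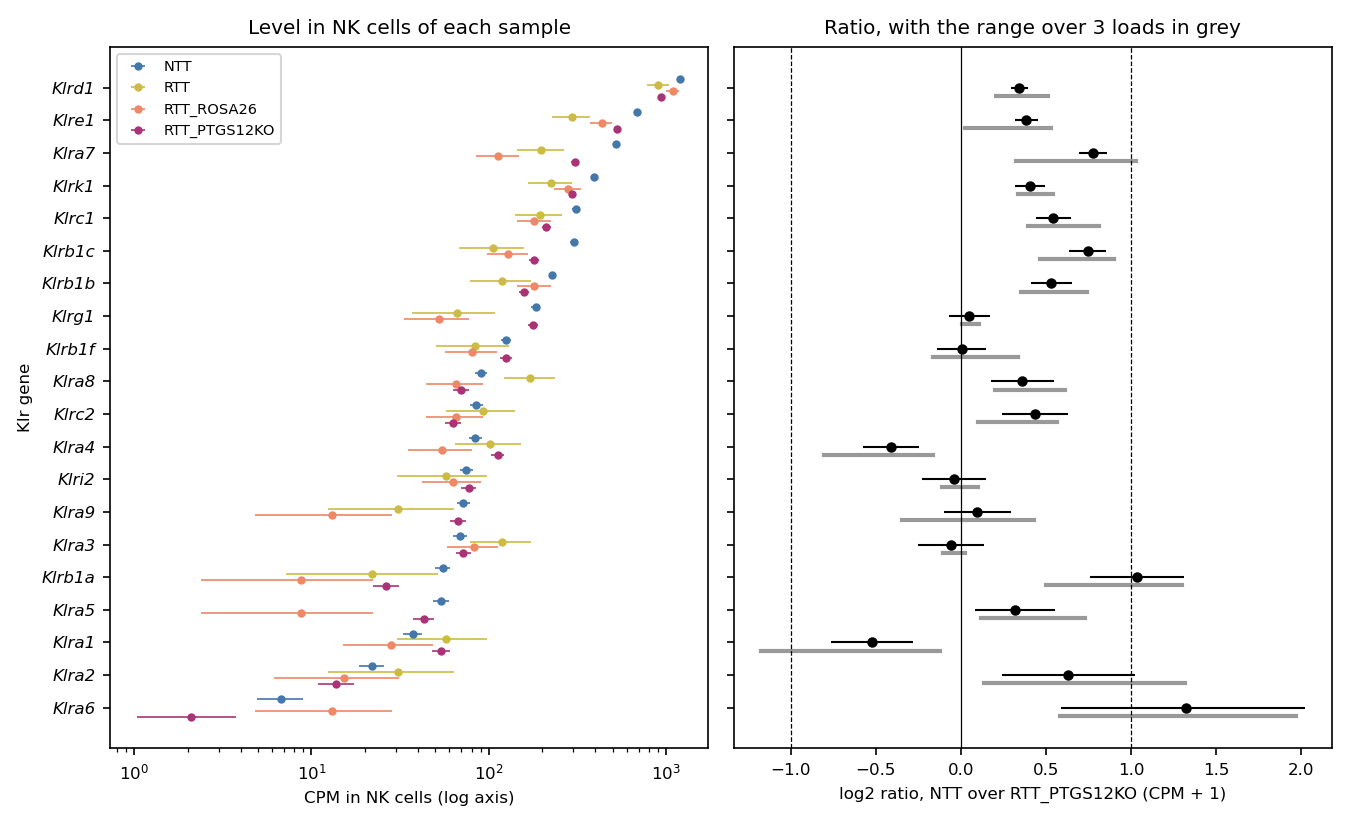
Left, CPM of the 20 Klr genes with at least 50 UMIs (rows) in NK cells of each sample on a log axis with 95% exact Poisson intervals, genes at 0 UMIs in a sample not drawn there. Right, log2 ratio of NTT over RTT_PTGS12KO with its counting interval in black and the range over the 3 chip loads in grey, the dashed lines marking 2-fold; Klra6 and Klrb1a lie past 2-fold on the NTT side and Klra1 and Klra4 on the other side of 0.

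Partners of the receptors were read from lists chosen with the members. Over all genes in NK cells, 1.19% were past 2-fold higher in NTT and 1.55% higher in RTT_PTGS12KO. Of 14 adaptor and signalling genes, 0 passed 2-fold in either direction. Their median log2 ratio was 0.23. The list went both ways, shown here by genes picked out after their values were seen. Of the adaptors, Tyrobp was at 2591 CPM in NTT and 1843 CPM in RTT_PTGS12KO, a log2 ratio of 0.49 (0.46 to 0.53), and Hcst at 397 and 246 CPM, 0.69 (0.60 to 0.79). Of the phosphatases, Ptpn6 (SHP-1) was at 78.0 and 103 CPM, -0.39 (-0.56 to -0.22), Ptpn11 (SHP-2) at 26.6 and 34.7 CPM, -0.37 (-0.66 to -0.08), and Inpp5d (SHIP1) at 46.7 and 38.8 CPM, 0.26 (0.01 to 0.51). Of 11 other NK receptors counted, 1 was past 2-fold, Pdcd1 (PD-1), with 179 UMIs in NTT and 58 in RTT_PTGS12KO and a log2 ratio of 1.12 (0.71 to 1.53). Of 17 NK maturation genes, 3 were past 2-fold higher in NTT, Ly6c2 (1.88), Cd7 (1.23) and Rora (1.19), and 1 in RTT_PTGS12KO, Cx3cr1 (-1.07). Ly6c2 is also one of the monocyte markers whose sum in NK cells was higher in NTT. Of 7 genes of group 1 innate lymphoid cells, 1 was, Cxcr6 at 1.61 (0.96 to 2.26) with 77 and 15 UMIs, and of 13 cytokine receptors 1, Il18r1 at 1.02 (0.80 to 1.24). Of 7 ligand genes counted in NK cells, 0 were.

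CD8+ T cells held the CD94, NKG2 and NKG2D genes, and few Ly49 transcripts. Klrd1 stood at 482 CPM (448 to 518) in the 93 T_CD8 cells of NTT and 325 (293 to 360) in the 45 of RTT_PTGS12KO. Klrc1 stood at 195 CPM (174 to 219) and 270 (241 to 301), Klrc2 at 59.6 (48.1 to 73.0) and 39.8 (29.1 to 53.0), and Klrk1 at 196 (175 to 219) and 212 (186 to 240). Over the 3 loads Klrc1 ran from 178 to 223 CPM in NTT and from 111 to 386 in RTT_PTGS12KO, and Klrc2 from 34.8 to 75.1 and from 4.82 to 54.2. Klrd1 ran from 445 to 551 and from 260 to 413 CPM, and Klrk1 from 181 to 206 and from 140 to 253. In RTT_PTGS12KO the loads of all 4 genes were thus spread wider than the counting intervals. Over the 141 T cells of the series, Klrc1 reached 85.9% of its NK cell CPM, Klrc2 69.2%, Klrk1 58.0% and Klrd1 38.6%. Klre1 reached 6.52%, Klra7 0.857% and Klrg1 0.817%, and Klra4, Klra6, Klra8 and Klra9 had 0 UMIs. Klra3 stood at 4.63 CPM in T_CD8 against 71.7 CPM in NK cells, and Klra1 at 1.78 against 44.1 CPM. In T_CD8 of NTT, Klra3 ran from 0 to 25.0 CPM over the loads. RTT and RTT_ROSA26 held 1 and 2 T_CD8 cells and are not compared.

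Dendritic cells carried Klrd1, Klrb1b and Klrk1 at high levels. Klrd1 in cDC2 stood at 562 CPM (532 to 593) in NTT, 626 (600 to 653) in RTT_PTGS12KO, 607 (574 to 641) in RTT and 719 (687 to 751) in RTT_ROSA26, and was found in 67.7% to 83.7% of cDC2 of a sample. In Monocyte_1 it was in 2.39% of cells and in TAM_C1q in 2.34%. Free NK RNA was far below this: 6 NK genes (Ncr1, Gzma, Prf1, Eomes, Txk and Il2rb) stood in cDC2 at 0.0791% of their NK level, Klrd1 at 58.3%. The partner chains of CD94 were nearly missing, with Klrc1 at 4.1 CPM and Klrc2 at 4.3 CPM in cDC2.

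Klrb1b, highest in cDC2, stood there at 344 CPM (321 to 369) in NTT, 481 (458 to 505) in RTT_PTGS12KO, 318 (294 to 343) in RTT and 209 (192 to 227) in RTT_ROSA26. With the 4 samples summed, Klrb1f was the next NKR-P1 gene in cDC2, at 5.79 CPM (4.44 to 7.42). In cDC1 Klrb1b stood at 165 CPM (130 to 206) in NTT and 239 (199 to 284) in RTT_PTGS12KO. Klrk1 in cDC2 stood at 394 CPM (369 to 421) in NTT, 246 (230 to 263) in RTT_PTGS12KO, 115 (101 to 130) in RTT and 70.4 (60.8 to 81.0) in RTT_ROSA26, and was found in 86.9%, 79.1%, 46.6% and 30.6% of cells. In DC3 it stood at 387 CPM (340 to 438) in NTT and 229 (196 to 266) in RTT_PTGS12KO. Both genes were lowest in RTT_ROSA26, and for Klrk1 the 4 samples were apart in cDC2 beyond counting error.

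Klri1, Klri2 and Klre1, whose products form heterodimers, were counted together at low levels in dendritic cells. In cDC2 Klre1 stood at 17.3 CPM (14.9 to 19.9), Klri2 at 18.1 (15.6 to 20.8) and Klri1 at 12.9 (10.8 to 15.2). In NK cells Klri1 was lower, at 2.52 CPM (1.73 to 3.53), and Klre1 far higher, at 607. Klra17 (Ly49Q), known from plasmacytoid and myeloid cells, was at 9.23 CPM (7.02 to 11.9) in neutrophils, 9.04 (7.73 to 10.5) in Ctsk_Macro and 8.40 (6.75 to 10.3) in cDC2 with the samples summed, and these 3 types were not apart. In NTT alone it was highest in the macrophage type TAM_H2Ab1, at 17.0 CPM (11.8 to 23.7), with 13.4 to 22.0 CPM over the loads, against 2.07 CPM (1.07 to 3.61) there in RTT_PTGS12KO. Other choices of samples or cells put its highest type in Ctsk_Macro, TAM_H2Ab1 or Monocyte_3, so that type is not settled.

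In cDC2 the samples were also compared by ratio, a comparison chosen after the levels were seen. Between NTT and RTT, 3 of the 7 members with at least 50 UMIs were past 2-fold higher in NTT, Klrk1 at a log2 ratio of 1.77 (1.57 to 1.98), Klra2 at 1.42 (1.03 to 1.83) and Klri2 at 1.14 (0.50 to 1.80), and 0 in RTT, against 4.9% and 5.59% of all genes. Between RTT_PTGS12KO and RTT_ROSA26, 3 of 7 were past 2-fold higher in RTT_PTGS12KO, Klra2 at 2.59 (2.04 to 3.18), Klrk1 at 1.79 (1.57 to 2.02) and Klrb1b at 1.20 (1.06 to 1.34), and 0 in RTT_ROSA26, against 4.63% and 2.67%. RTT_ROSA26 against RTT, both resistant with the cyclooxygenases intact and each also used above, had 0 members past 2-fold higher in RTT_ROSA26 (0.62% of all genes) and 1 in RTT (3.46%), Klra2 at -1.68 (-2.34 to -1.05). Klrk1 differed between these controls by -0.70 (-0.97 to -0.42). Monocyte markers moved the same way in cDC2. All 5 of them had UMIs in each sample, and they summed to 4916 CPM in NTT, 2349 in RTT_PTGS12KO, 743 in RTT and 741 in RTT_ROSA26. The 5 cDC2 markers stayed between 9240 and 11160 CPM. With the samples summed, H2-Ab1 gave 9481 of their 9995 CPM, and 3 of the 5 were highest in cDC2. The same list summed to 7348 CPM in Monocyte_1 of NTT, so its steady sum says little about the make-up of cDC2. The part of monocytes or monocyte-like cells within the cDC2 name was not tested.

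Monocytes and macrophages held most transcripts of Klra2 (Ly49B), an inhibitory receptor known from myeloid cells, and only 0.657% of its UMIs came from NK cells. Klra2 was highest in Monocyte_3, the type with non-classical monocyte markers, at 342 CPM (239 to 473) in 26 NTT cells and 415 (316 to 535) in 33 RTT_PTGS12KO cells. In Infl_Mono, the inflammatory monocytes, it stood at 271 CPM (262 to 281) in NTT, 261 (247 to 276) in RTT_PTGS12KO, 163 (142 to 187) in RTT and 157 (126 to 192) in RTT_ROSA26. In Monocyte_1 it stood at 245 CPM (240 to 250), 176 (172 to 181), 171 (157 to 184) and 143 (109 to 185), and 79.1% of the 4977 NTT cells held it. RTT and RTT_ROSA26 overlapped in both types and lay below NTT. The spread was wider in TAM_cycling, at 161 CPM (141 to 183), 83.9 (81.1 to 86.7), 35.0 (32.3 to 37.8) and 20.1 (18.8 to 21.5), where the ranges over the 3 loads were 130 to 191, 76.2 to 87.9, 28.8 to 39.5 and 17.9 to 21.4 CPM and did not overlap.

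Klrk1 was counted in monocytes as well. In Infl_Mono it stood at 186 CPM (178 to 194) in NTT, 112 (103 to 121) in RTT_PTGS12KO, 64.4 (51.2 to 79.9) in RTT and 40.001 (25.4 to 60.02) in RTT_ROSA26. In Monocyte_1 it stood at 136 CPM (132 to 139), 96.2 (93.1 to 99.5), 92.8 (83.2 to 103) and 58.2 (37.3 to 86.6). In TAM_cycling it stood at 102 CPM (86.5 to 120), 29.4 (27.8 to 31.1), 7.52 (6.32 to 8.89) and 2.46 (2.01 to 2.98). The order of the samples was NTT, RTT_PTGS12KO, RTT and RTT_ROSA26 in each of the 3 types, though neighbours overlapped, RTT_PTGS12KO with RTT in Monocyte_1 and RTT with RTT_ROSA26 in both monocyte types. NK markers were at most 12.3 CPM in Infl_Mono of any sample, and 76.5 CPM in TAM_cycling of NTT. Markers of monocytes and macrophages moved with these samples in all 3 types. In Infl_Mono, macrophage markers summed to 3802, 2976, 22723 and 9465 CPM and monocyte markers to 10631, 11972, 3694 and 6598 CPM. In Monocyte_1 the macrophage sums were 4416, 5537, 10068 and 6407 CPM and the monocyte sums 6544, 4376, 2105 and 3926 CPM. Monocyte markers in TAM_cycling summed to 2530 CPM in NTT, 704 in RTT_PTGS12KO, 193 in RTT and 184 in RTT_ROSA26, while macrophage markers summed to 9240, 11332, 24261 and 22087 CPM. The part of either in these Klra2 and Klrk1 levels was not tested. In TAM_C1q, the macrophages with complement genes, Klrk1 was at 3.0 CPM.

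**Figure D4:**
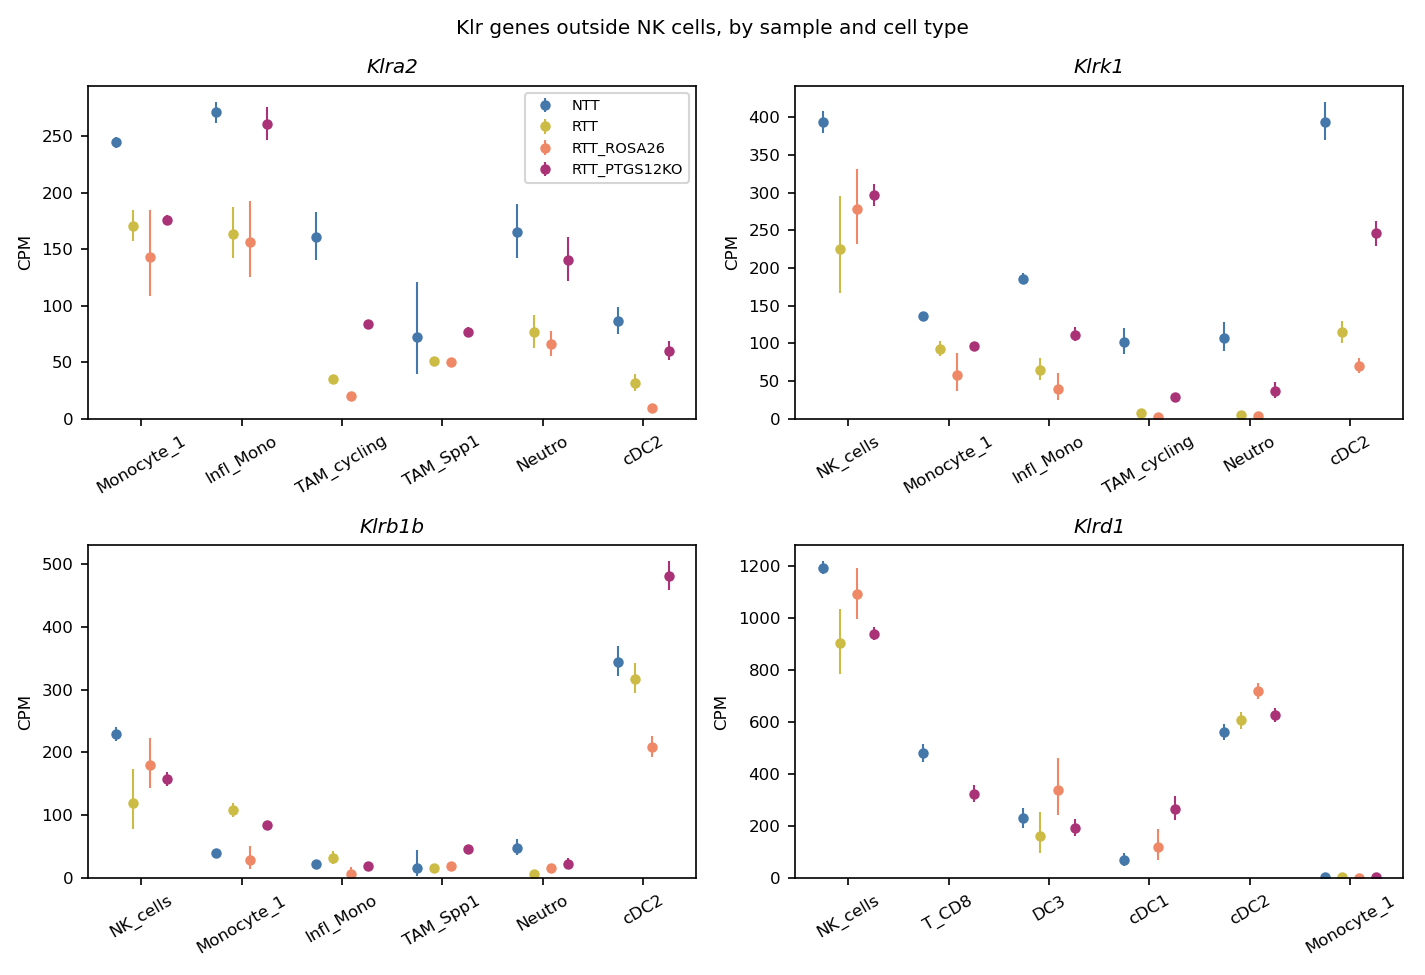
CPM of Klra2, Klrk1, Klrb1b and Klrd1 (panels) by cell type (x axis) and sample (colour), with 95% exact Poisson intervals and types with under 10 cells in a sample left out. Klra2 and Klrk1 are higher in NTT and RTT_PTGS12KO than in RTT and RTT_ROSA26 in TAM_cycling, Infl_Mono and cDC2, reaching 394 CPM for Klrk1 in cDC2 of NTT, while Klrd1 in cDC2 stays between 562 and 719 CPM.

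Klra4 was the single Klr gene counted at a high level in Myofibrobl, a type of 351 cells with a median of 33686 UMIs. All 5 stroma markers (Col1a1, Col1a2, Col3a1, Sparc and Serpinh1) were highest in this type, at a sum of 1244 CPM. Of the 5 melanoma markers, Mitf was at 4.70 CPM, Pmel at 0.16 CPM and Mlana, Dct and Tyr at 0 CPM, but the last 3 were under 0.1 CPM in every type, so their absence does not tell these cells from tumour cells. The 5 macrophage markers summed to 1096 CPM there, against 1405 CPM in NK cells. Klra4 stood at 88.3 CPM (42.3 to 162) in the 6 cells of NTT, 146 (138 to 154) in the 249 of RTT, 238 (219 to 258) in the 59 of RTT_ROSA26 and 182 (159 to 207) in the 37 of RTT_PTGS12KO. It was found in 3 of the 6 NTT cells and in 78.7% (73.1 to 83.6), 94.9% (85.9 to 98.9) and 83.8% (68.0 to 93.8) of the others in turn. Of all 3553 Klra4 UMIs, 2092 came from Myofibrobl and 35.0% from NK cells.

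Most other Ly49 genes had 0 UMIs there. Klra8, whose start region is shown above as the nearest to that of Klra4, had 0 UMIs in the 351 Myofibrobl cells, which allows up to 0.239 CPM. Klra7, Klra3, Klra9, Klra5 and Klra1 had 0 UMIs as well. Klra6, the next Ly49 gene along the chromosome, had 20 UMIs there, 1.59 CPM (0.97 to 2.46), and in RTT_PTGS12KO alone Myofibrobl was its highest type. Klra2 had 49 UMIs and Klra17 had 2. The 6 NK genes used to gauge free RNA stood in Myofibrobl at 0.0342% of their NK level, and Klra4 at 176% of its own. In every other type apart from NK cells Klra4 was at 1.63 CPM or less. The matrix gives counts per gene, so where in Klra4 the reads lie is not known from it.

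**Figure D5:**
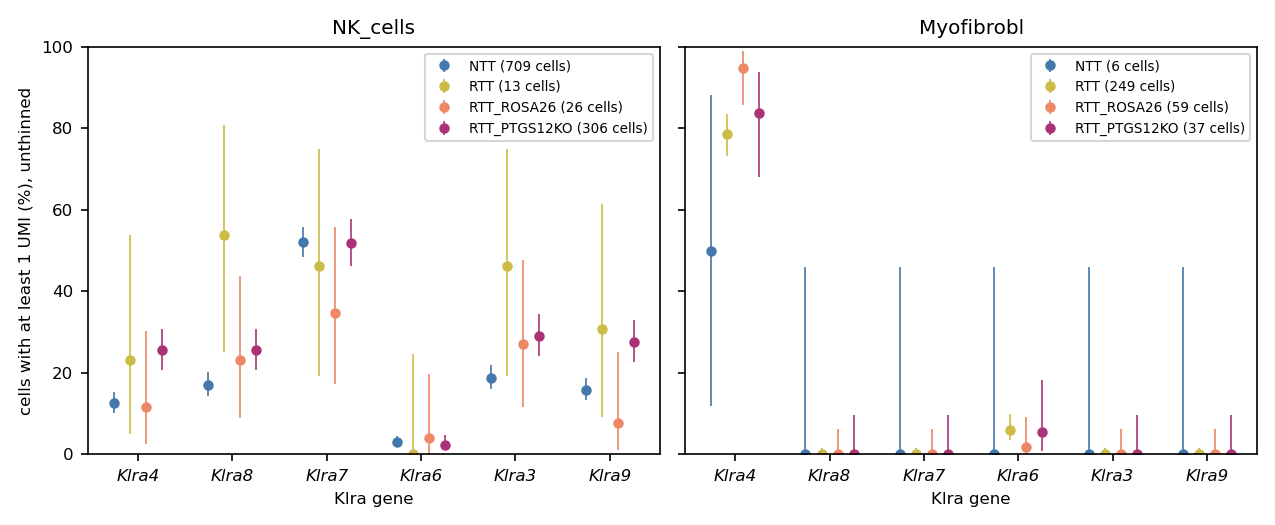
Percent of cells with at least 1 UMI, unthinned, of 6 Klra genes in NK_cells (left) and Myofibrobl (right) of each sample, with 95% exact binomial intervals and cell numbers in the legend. In Myofibrobl Klra4 is in up to 94.9% of the cells of a sample and Klra8, Klra7, Klra3 and Klra9 in 0%.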

How the data were processed

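Single CD45+ cells from 4 tumour samples, 1 per group, were labelled with oligos, pooled and run in 3 chip loads of a droplet 3′ assay. The authors deposited UMI counts per gene and cell with their cell type names. Per the labels' processing notes the reads were processed with Cell Ranger against mm10, with Seurat 4.3.0 after it. The study's methods give the filters (over 1000 genes, under 15% mitochondrial and under 40% ribosomal counts) and Harmony integration. No doublet caller was run here, and the oligos remove only doublets between samples.

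Counts were summed per sample and cell type and given as CPM with exact Poisson 95% intervals. Ratios are log2 of CPM + 1 with intervals from the exact binomial distribution, for genes with at least 50 UMIs in both sums together, and 2-fold was the limit for calls. With 1 sample per group nothing was tested across samples. For shares, cells were thinned to 3500 UMIs, the 10th percentile of NK cells rounded down to a step of 500, and shallower cells were left out. Tools were Python 3.11.15, numpy 2.4.6, scipy 1.17.1, pandas 2.3.3, matplotlib 3.10.9, R 4.3.3 and edgeR 4.0.16 (TMM factors only). The scripts were tested on simulated data. Coordinates come from GENCODE vM21 on GRCm38, and start regions from RefSeq.

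The members and the gene lists were chosen with earlier results of these data known. By the rule for named genes, each member with at least 10 UMIs in the NK cells compared is named, a member highest elsewhere is named there, and genes of the other lists are named past 2-fold. The alternatives were another pseudocount, TMM factors, other UMI minimums, thinned cells (a single random draw and, added after the data were seen, the mean over all draws, also for shares), stricter cell filters, NK cells without T cell receptor UMIs or without those richest in myeloid UMIs, single loads, and single samples or equal weights for the highest type.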

Additional observations from a re-analysis of the deposited data

How the results depend on the processing

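No paired analysis was possible because there is a single sample in every group. The count of Klr genes past 2-fold higher in NTT, 2, became 0 with CPM + 10 and with thinned cells averaged over all draws (an alternative added after the data were seen), and became 1 with a minimum of 200 UMIs, with thinned cells in a single draw, without NK cells holding a T cell receptor or CD8 UMI, with over 1500 genes and under 10% mitochondrial UMIs, in load 1 alone and in load 2 alone. The gene was Klra5 in that draw, Klra2 in load 1 and Klrb1a in the others. The count higher in RTT_PTGS12KO, 0, became 1 with a minimum of 10 UMIs (Klra17) and in load 1 alone (Klra1). The 15 Klra17 UMIs of RTT_PTGS12KO came from only 0.654% of its 306 NK cells. The log2 ratio of summed Klr transcripts, 0.38, was 0.42 with TMM factors, 0.33 with the stricter cell filter, 0.19 in load 1 and 0.52 in load 2. The count of genes highest in NK cells, 19, lay between 17 and 19. The log2 ratios of Klrg1, Klrb1f, Klri2, Klra9 and Klra3, whose counting intervals cross 0, changed sign under at least 1 alternative, as far as -0.35 for Klra9 in load 1 and -0.17 for Klrb1f in load 3. Counting intervals do not cover variation between mice, and RTT and RTT_ROSA26 held 13 and 26 NK cells.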

Other observations

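Genes of the ligands that Klr receptors read were spread over the other cells of these tumours, with all 4 samples summed. H2-T23, which encodes the Qa-1 bound by CD94 with NKG2, was at 1130 CPM in Infl_Mono, 974 CPM in Monocyte_1, 324 CPM in NK cells and 36.8 CPM in Myofibrobl. Clec2d, the ligand gene of the receptor from Klrb1b, was at 72.4 CPM in Monocyte_3 from 19 UMIs and at 50.7 CPM in DC3. Of the NKG2D ligand genes, Raet1d was at 25.7 CPM in TAM_cycling, Raet1e at 18.0 CPM in TAM_Spp1 and Ulbp1 at 22.8 CPM in T_CD8. Of the cadherins bound by KLRG1, Cdh1 was highest in cDC2 at 97.5 CPM and Cdh2 in Myofibrobl at 33.5 CPM. These genes were picked out of the ligand list after their values were seen.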
